A study of Mus musculus with 111 samples.

Results

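Control 2-cell mouse embryos with the most RNA of the Zscan4 genes were compared with those that had the least. Zscan4 level was the summed estimated count of all Zscan4 transcripts per 1 M counts of the embryo's library (CPM). Within each of 3 experiments the highest and the lowest floor(n/3) control embryos were taken, which gave 18 high-Zscan4 and 18 low-Zscan4 embryos, 36 of the 111 embryos of the series. They were 8 and 8 of 24 control embryos in experiment 1, 2 and 2 of 7 in experiment 2, and 8 and 8 of 25 in experiment 3. The 20 control embryos between them, called middle here, and the 55 Nr5a2 knockdown embryos served for comparison. The embryos were thus chosen by their Zscan4 CPM, so Zscan4 levels are a description, and the Zscan4 genes were left out of every test of single genes. The Zscan4 genes stayed in the library totals and in the number of genes detected.

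All embryos were of strain B6129F1 and came from oocytes at the germinal vesicle stage that were injected before maturation. Control embryos received a set of 2 control siRNAs at 20 µM and 150 ng/µl of marker RNA for H2B-EGFP, and knockdown embryos a set of 2 siRNAs against Nr5a2 with marker RNA for H2B-rsEGFP. After 5 hours in arrest medium and 12 hours of maturation the oocytes were fertilized in vitro and cultured in KSOM. Each library held the RNA of 1 embryo (SmartSeq2 with oligo dT priming), which pools both blastomeres, so fewer expressing cells and less RNA per cell cannot be told apart. High- and low-Zscan4 embryos of an experiment therefore shared strain, injection and culture. Which embryos had the same mother is not in the labels, so a p-value here reflects the spread between single embryos only. Embryo 1 of the controls in experiment 2 was not analysed here.

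Zscan4 is a cluster of mouse genes for proteins with a SCAN domain and zinc fingers. Its RNA appears in a short burst at the 2-cell stage, during the main wave of zygotic genome activation, and again in rare embryonic stem cells that resemble 2-cell embryos. In those stem cells it is known for its part in telomere lengthening. Maternal RNA stored in the oocyte is removed over the same period, so an embryo at this stage holds both maternal and newly made transcripts.

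The promoters of 3 Zscan4 genes, 2 other families that were higher in high-Zscan4 embryos and 2 genes that were lower are shown, because the groups differed in short promoter sequences described further on. Each line holds the 100 bases before the annotated start in RefSeq (GRCm38.p6), 5′ to 3′ on the strand of the gene, and capitals mark TATAAA or CTTCCGG. Zscan4c lies at chr7:11005645-11005744, plus strand, Zscan4d at chr7:11166149-11166248, minus strand, and Zscan4f at chr7:11397815-11397914, plus strand.
Zscan4c: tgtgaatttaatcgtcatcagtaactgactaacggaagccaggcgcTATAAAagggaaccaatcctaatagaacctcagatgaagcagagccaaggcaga
Zscan4d: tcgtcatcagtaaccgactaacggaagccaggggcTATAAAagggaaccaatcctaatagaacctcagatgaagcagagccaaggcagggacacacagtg
Zscan4f: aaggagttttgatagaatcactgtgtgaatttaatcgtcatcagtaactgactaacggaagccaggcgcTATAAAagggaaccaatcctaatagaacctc
Pramel19 (PRAME-like family) lies at chr4:101940307-101940406, plus strand, Pramel39 at chr5:94306797-94306896, minus strand, and Usp17lc (a deubiquitinase gene) at chr7:103416596-103416695, plus strand.
Pramel19: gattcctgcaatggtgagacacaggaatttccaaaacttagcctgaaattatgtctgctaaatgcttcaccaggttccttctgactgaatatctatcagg
Pramel39: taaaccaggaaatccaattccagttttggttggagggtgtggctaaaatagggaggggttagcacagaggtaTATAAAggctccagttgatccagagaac
Usp17lc: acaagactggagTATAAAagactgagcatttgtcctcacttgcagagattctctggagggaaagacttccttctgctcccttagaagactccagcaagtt
Rpf2 (ribosome assembly) lies at chr10:40247040-40247139, minus strand, and Surf2 at chr2:26916308-26916407, plus strand.
Rpf2: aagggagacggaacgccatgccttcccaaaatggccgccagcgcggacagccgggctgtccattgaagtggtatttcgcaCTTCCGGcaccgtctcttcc
Surf2: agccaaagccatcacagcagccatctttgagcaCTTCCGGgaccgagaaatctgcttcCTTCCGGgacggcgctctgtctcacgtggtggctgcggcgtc
The 66 bases formed by TATAAA with 30 bases on either side were identical in Zscan4c and Zscan4f, and Zscan4d differed from each at 2 of them. The annotated start lay 54, 65 and 31 bases after the first base of TATAAA in Zscan4c, Zscan4d and Zscan4f, so the annotated starts and not the sequence set the shift between the lines. Pramel19 held neither sequence in this window. Annotations differ in the starts: in GENCODE M21 Usp17lc begins at chr7:103415072, so its window lies inside the gene by that annotation. The windows of Zscan4d and Surf2 overlap their genes in part there.

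Summed Zscan4 levels varied over more than an order of magnitude among control embryos. In experiment 1 they ran over 218 to 420.4 CPM (median 258) in the low class and 1100 to 4355 CPM (median 1543) in the high class, and in experiment 3 over 135 to 246 CPM (median 179.6) and 549 to 3374 CPM (median 1064). The low embryos of experiment 2 stood at 100.1 and 152 CPM and the high ones at 690.4 and 767 CPM. The classes were thus relative to the experiment, and a high embryo of experiment 2 or 3 could have less Zscan4 RNA than a middle embryo of experiment 1. The classes were cut where levels were continuous: in experiment 3 the highest low embryo had 246 CPM and the lowest middle one 250.2 CPM, and in experiment 1 these were 420.4 and 453 CPM. At the upper limit the highest middle embryo had 906 and the lowest high embryo 1100 CPM in experiment 1, 629 and 690.4 in experiment 2, and 509.7 and 549 in experiment 3.

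**Figure D1:**
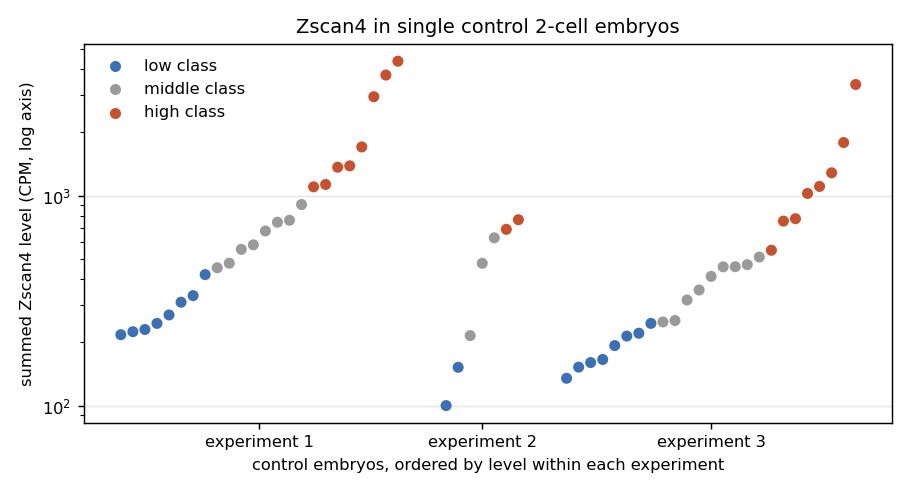
Summed Zscan4 level (CPM, log axis) of each of the 56 control embryos, ordered by level within its experiment, with 1 point per embryo coloured by class. Levels rise without a gap at most class limits, and the high class of experiment 2 (690.4 and 767 CPM) lies within the middle range of experiment 1 (453 to 906 CPM).

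The 12 Zscan4 transcripts in the table belonged to 9 genes on chromosome 7, between positions 10794242 and 11614112 (GRCm38, GENCODE M21). Zscan4f gave 35.5% of all Zscan4 counts in control embryos, Zscan4d 15.7%, Zscan4a 15.0% and Zscan4c 11.0%, while Zscan4e and Zscan4b together stayed under the share of any of these. Zscan4-ps2, Zscan4-ps3 and Zscan4-ps1, which have pseudogene names, were part of the sum and gave 8.23%, 7.71% and 5.79%. In experiment 2 Zscan4-ps1 had a median of 3.26 CPM in the 2 high and 10.6 CPM in the 2 low embryos. Zscan4f ranged over 34.2 to 132 CPM (median 62.6) in low, 65.9 to 332 CPM (median 147) in middle and 187 to 1580 CPM (median 463) in high embryos. Zscan4c ranged over 1.99 to 30.8 CPM (median 14.8) in low and 42.1 to 556 CPM (median 152) in high embryos, and Zscan4d over 13.6 to 49.8 CPM (median 35.01) and 89.9 to 687 CPM (median 187). For Zscan4c, Zscan4d and Zscan4f the lowest high embryo was above the highest low embryo, which the choice of classes favours. Zscan4a overlapped, with 17.8 to 139 CPM (median 49.4) in low and 28.9 to 542 CPM (median 186) in high embryos. The copies are near-identical, so reads can be split among them in an uncertain way and the sum is the safer measure. Of 7 other tested genes within the cluster, all with clone names, 2 were higher and 1 lower in the fit described below. Of all genes tested there 28.1% were higher and 26.4% lower, so 2 of 7 is near the share of all genes.

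Library totals of the control embryos ran from 2.18 to 15.4 M estimated counts (median 4.98). Totals were 2.18 to 15.4 M (median 4.50) in high and 3.00 to 14.8 M (median 5.37) in low embryos, a difference that did not pass (permutation of the class within experiments, two-sided, adjusted p = 0.23, as for the other measures here). At an equal depth of 2.15 M counts the expected number of genes detected was 16341 to 18243 (median 17305) in high and 15545 to 17048 (median 16399) in low embryos, 1.06-fold more in high embryos (adjusted p = 5e-05, the smallest that these permutations can give after adjustment). The mitochondrial share of counts (median 7.21% and 6.85%, adjusted p = 0.637) and Nr5a2 (median 92.6 and 96.5 CPM, adjusted p = 0.797) did not pass. Marker RNA was near 0 in experiment 1 (at most 2.18 CPM) and was compared in experiments 2 and 3 only, where it did not pass (adjusted p = 0.797). Control embryo 2 of experiment 2, in the high class, had the smallest library and the most marker RNA of the control embryos (5351 CPM), and results were also computed without it. Of 23 marker genes of cumulus and granulosa cells, 7 were abundant enough to test, of which Vim, Lhcgr and Col4a2 were higher and Amhr2 was lower in high embryos. These are 42.9% and 14.3% of the tested markers, against 28.1% and 26.4% of all genes. Vim had a median of 2.81 CPM in high and 0.30 CPM in low embryos, the latter below the low-count filter's limit of 2.09 CPM. The markers summed to 152 to 245 CPM (median 193) in low and 89.6 to 273.8 CPM (median 164) in high embryos, mostly from Amhr2 and Serpine2. No marker was at 0 in every control embryo. Several were detected in more high than low embryos: Foxl2 in 9 of 18 high and 2 of 18 low ones, Inhba in 6 and 1, Nr5a1 in 6 and 2 and Has2 in 8 and 4, each with a median of at most 0.0812 CPM. Others went the other way: Star was detected in 12 high and 15 low embryos (median 0.554 and 1.80 CPM) and Col4a1 in 10 and 14. Ptgs2 had a median of 2.23 CPM in high and 0.174 CPM in low embryos, whereas Fshr (2 and 0 embryos), Inha (3 and 1) and Amh (1 and 2) were rarely detected. With no low-count filter 8 of the 23 markers were higher and 1 lower (median log2 fold change 1.17). Of all 28307 genes 5151 were then higher and 4073 lower (median 0.23). The mean log2 CPM over the tested list had a median of 3.20 in high and 2.63 in low embryos, whereas the median of the sum was smaller in high ones. Of 18 sperm markers 5 were tested: Oaz3 and Ldhc were lower (40%, against 26.4% of all genes) and none was higher. The sum of the 18 went the other way, with a median of 255.5 CPM in high and 208.5 CPM in low embryos. It came mostly from Odf2, with a median of 196.2 CPM in high and 161.7 CPM in low embryos. Pgk2 was detected in 14 high and 7 low embryos and Prm2 in 17 and 11, but Akap4 in 3 and 8. The part of such transcripts in the results was not tested.

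The comparison asked which other genes differ between embryos with much and with little Zscan4 RNA. Over 13208 genes tested, 3711 (28.1%) were higher and 3486 (26.4%) lower in high-Zscan4 embryos, so 54.5% of all genes passed (edgeR quasi-likelihood F-test with experiment as a factor, adjusted p under 0.05). Changes of 2-fold or more were found in 1697 higher and 1307 lower genes, and of 4-fold or more in 265 and 92. The median log2 fold change of all genes was 0.08. A level here is a share of the RNA in a library, and the split depends on the scaling: with size factors from oocyte transcripts alone, 2021 genes were higher and 4558 lower and the median fell to -0.20. Higher genes then made up 30.7% of the calls, against 51.6% with TMM scaling. The direction had the same sign in all 3 experiments fitted apart for 3121 of the higher and 3252 of the lower genes. These genes were called on the same embryos, so the choice of genes favours equal signs. Experiment 2 held only 2 high and 2 low embryos. The share with equal signs among genes that were not called is not given, so these counts are a description and no replication. No gene passed a test of whether the difference varied between experiments (0 called, 562 at an unadjusted p under 0.05, smallest adjusted p = 0.180 by edgeR, and 0 called by limma-voom).

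Middle embryos, which the fit of the classes did not use, lay between the classes for most called genes. Their mean difference from the low class fell between 0 and that of the high class for 92.3% of the higher and 95.0% of the lower genes, and for 43.8% of the 6011 genes that were not called. Both differences use the same low embryos, so they are not independent, and these shares are a description. Only 56 genes (0.424%) were called with no overlap between the 18 high and the 18 low embryos, 16 of them higher and 40 lower.

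The Usp17-like genes, which encode deubiquitinating enzymes and are textbook 2-cell transcripts, were all higher (5 of 5 tested, against 28.1% of all genes, median log2 fold change 2.85). Usp17lc had 114 to 877 CPM (median 302) in the 18 high-Zscan4 embryos and 3.81 to 138 CPM (median 24.3) in the 18 low-Zscan4 embryos. Its log2 fold change was 3.34 ± 0.34 (SE) with adjusted p = 2.55e-09, and 1 or more low embryos reached the range of the high ones. Usp17la had 64.8 to 587 CPM (median 114) in the 18 high-Zscan4 embryos and 3.23 to 49.0 CPM (median 12.4) in the 18 low-Zscan4 embryos, and these ranges did not overlap (log2 fold change 3.28 ± 0.34 (SE), adjusted p = 2.58e-09). Usp17ld had 35.8 to 129 CPM (median 59.5) in the 18 high-Zscan4 embryos and 0 to 30.4 CPM (median 4.78) in the 18 low-Zscan4 embryos, again with no overlap (log2 fold change 2.85 ± 0.35 (SE)). Usp17lb and Usp17le differed less, with log2 fold changes of 0.96 ± 0.28 (SE) and 1.46 ± 0.33 (SE). Usp17lb RNA was present where Zscan4 was low, at 52.9 to 766 CPM in low embryos.

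Of the 2-cell stage genes, a list of transcripts known for this stage that includes the Usp17-like, Tdpoz and Tcl1 genes, 39 of 67 tested were higher and 8 lower (median log2 fold change 1.01). The share higher was 58.2%, against 28.1% of all genes. Tcstv1, a gene of the 2-cell stage linked to telomere length in stem cells, had 31.9 to 493 CPM (median 118) in the 18 high-Zscan4 embryos and 5.6 to 44.6 CPM (median 18.2) in the 18 low-Zscan4 embryos. It had a log2 fold change of 2.82 ± 0.27 (SE) with adjusted p = 8.6e-10, and the ranges overlapped at their edges. Eif1ad8, one of many gene copies related to the initiation factor eIF1A, had 98.3 to 1187 CPM (median 299) in the 18 high-Zscan4 embryos and 17.9 to 119 CPM (median 52.1) in the 18 low-Zscan4 embryos (log2 fold change 2.76 ± 0.27 (SE)). Zfp352, a zinc finger gene of the 2-cell stage, was higher by 1.84 on the log2 scale, and Arg2, the mitochondrial arginase, by 1.72. Members of the list were also lower: Pramel7 had 54.3 to 355 CPM (median 121) in the 18 high-Zscan4 embryos and 181 to 434 CPM (median 280.4) in the 18 low-Zscan4 embryos (log2 fold change -1.005 ± 0.17 (SE)), and Snai1, a zinc finger repressor, had 61.0 to 294 CPM (median 106) in the 18 high-Zscan4 embryos and 167 to 327 CPM (median 232) in the 18 low-Zscan4 embryos (log2 fold change -0.97 ± 0.17 (SE)). Sp110, often counted among the genes that follow Zscan4 in stem cells, had a median of 626 CPM in high and 868 CPM in low embryos and did not pass (adjusted p = 0.07). The Tdpoz genes, which encode proteins with a TRAF-like and a BTB domain, had 3 of 9 members higher (33.3%, near the 28.1% of all genes), with Tdpoz3 at a log2 fold change of 2.42 ± 0.37 (SE) and Tdpoz8 at 1.41 ± 0.25 (SE), and none was lower. Under oocyte scaling 3 Tdpoz genes were higher and 2 lower, and without experiment 3 the median of the family fell from 0.51 to -0.01. Oocyte-scaled values for the 2-cell list were 34 higher and 14 lower, with a median of 0.68.

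Families of 2-cell genes that the list did not cover in full were counted after the values had been seen. Of 43 tested PRAME-like (Pramel) genes, which encode leucine-rich repeat proteins, 30 were higher and 8 lower (69.8% and 18.6%, against 28.1% and 26.4% of all genes). Pramel19 had the smallest p of all genes: it ranged over 86.7 to 644 CPM (median 227) in the 18 high-Zscan4 embryos and 3 to 61.4 CPM (median 18.6) in the 18 low-Zscan4 embryos with no overlap, a log2 fold change of 3.81 ± 0.29 (SE) and adjusted p = 1.44e-11. Every high embryo exceeded the highest low embryo. Pramel39, Pramel45 and Pramel40 had larger log2 fold changes of 4.83 ± 0.77 (SE), 4.70 ± 0.59 (SE) and 4.05 ± 0.53 (SE), and Pramel39 was at 0 in at least 1 high embryo and was, like 5 other tested Pramel genes, above the low-count filter's limit of 2.09 CPM in fewer than 9 low embryos. Pramel35 and Pramel38 went the other way, with log2 fold changes of -1.87 and -1.72. Of 16 tested Eif1ad genes, 15 were higher (93.75%, against 28.1% of all genes), with a median log2 fold change of 2.82, and the parental gene Eif1ad was lower (-0.48). Of these 16, 4 reached the filter limit of 2.09 CPM in fewer than 9 low embryos, so they were tested mainly because of the high ones. With no filter 16 of 18 Eif1ad genes were higher and 1 lower. Eif1ad2 had 41.7 to 384 CPM (median 158) in the 18 high-Zscan4 embryos and 0 to 39.5 CPM (median 16.1) in the 18 low-Zscan4 embryos, which did not overlap (log2 fold change 3.43 ± 0.37 (SE)), and Eif1ad13 was higher by 3.65. Eif4a3l1 and Eif4a3l2, copies of the gene for an RNA helicase of the exon junction complex, had log2 fold changes of 3.72 ± 0.39 (SE) and 3.88 ± 0.48 (SE). Of 38 annotated Obox4 pseudogenes 5 were tested and 3 were higher, among them Obox4-ps27 (4.78) and Obox4-ps28 (4.40), while 2 of these 5, Obox4-ps27 among them, reached the limit of the low-count filter (2.09 CPM) in fewer than 9 of 18 low embryos and so were tested mainly because of the high ones. With no filter 17 of 35 Obox4 pseudogenes were higher and none lower, against 5151 higher and 4073 lower of all 28307 genes. Of the 7 tested homeobox genes of the Obox family 1 was higher (Obox3, 0.70) and 2 lower (Obox6, -0.58, and Obox8, -1.41). These are 14.3% and 28.6% of the family, the latter near the 26.4% of all genes. Reads of such copies are hard to place, and 21 higher and 2 lower genes had counts identical to those of another gene. Gm11238, a clone-named gene with the second smallest p among higher genes, had 65.2 to 549 CPM (median 151) in the 18 high-Zscan4 embryos and 1.13 to 36.1 CPM (median 14.1) in the 18 low-Zscan4 embryos and did not overlap.

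**Figure D2:**
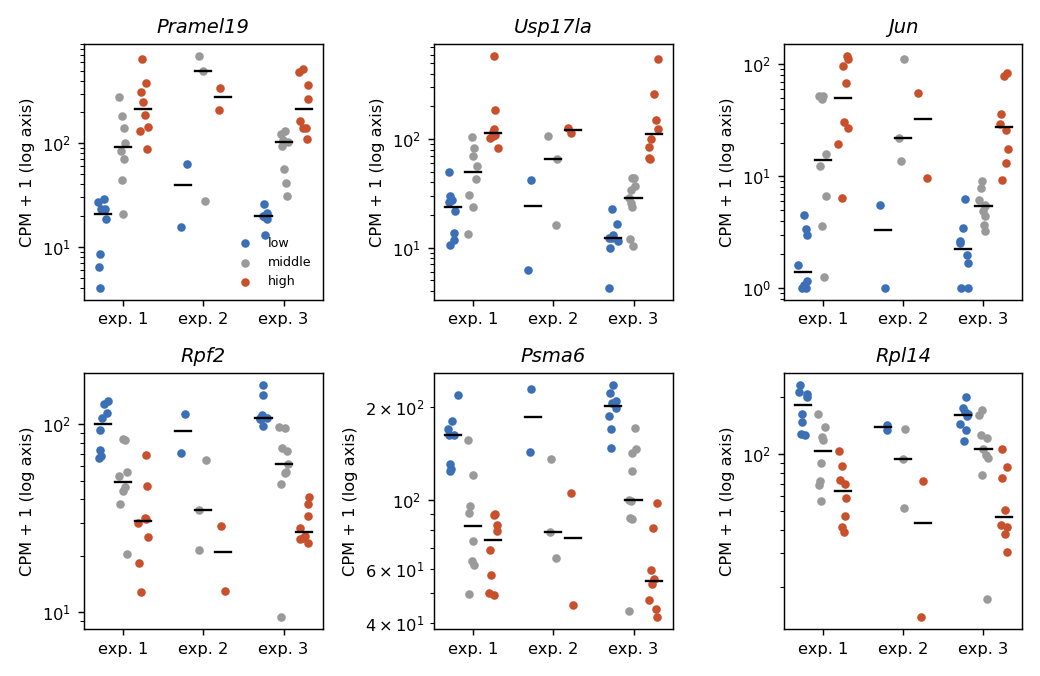
Level of 6 genes in single control embryos (CPM plus 1, log axis) by experiment and Zscan4 class (low, middle, high), with 1 point per embryo and a bar at the median of the class. Pramel19, Usp17la and Jun are higher and Rpf2, Psma6 and Rpl14 lower in high embryos of each experiment. High and low embryos do not overlap over all experiments except for Rpf2. For Usp17la, Jun, Rpf2, Psma6 and Rpl14 the median of all middle embryos lies between those of the other classes. Single middle embryos of these genes reach the ranges of both.

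Atf3 and Jun, which encode AP-1-type transcription factors, had the largest log2 fold changes of the named genes. Jun had 5.43 to 119 CPM (median 28.9) in the 18 high-Zscan4 embryos and 0 to 5.29 CPM (median 0.821) in the 18 low-Zscan4 embryos, a log2 fold change of 4.92 ± 0.55 (SE) with adjusted p = 8.75e-09. The lowest high embryo (5.43 CPM) was just above the highest low embryo (5.29 CPM). Atf3, a stress-induced member of the same bZIP class, had 0 to 191 CPM (median 18.2) in the 18 high-Zscan4 embryos and 0 to 10.4 CPM (median 0.540) in the 18 low-Zscan4 embryos (log2 fold change 5.04 ± 0.72 (SE), adjusted p = 5.2e-07), and the ranges overlapped. Fos, which was chosen after its values had been seen, had 1.46 to 90.4 CPM (median 18.1) in the 18 high-Zscan4 embryos and 0 to 8.98 CPM (median 0.652) in the 18 low-Zscan4 embryos (log2 fold change 4.33 ± 0.62 (SE)). All 3 genes entered the test through the high class: the filter limit (2.09 CPM, to be reached in 16 of the 36 embryos) was reached by 5 low and 18 high embryos for Jun, 3 and 16 for Atf3 and 5 and 17 for Fos. A difference in them was thus favoured by the filter, and their number gives no support. Atf3 was below the filter in experiment 3 alone and has no value there. Of all 13208 tested genes 776 reached the limit in fewer than 9 low embryos, 434 of them among the 3711 higher genes. With no filter 5 of the 8 Fos, Jun and Atf3 genes in the table were higher and none was lower, against 5151 higher and 4073 lower of all 28307 genes. Further genes with a large increase were Babam2, a subunit of a BRCA1-containing complex (3.41 ± 0.58 (SE)), and Prr18 (3.56 ± 0.41 (SE)). Babam2 had 1.56 to 99.7 CPM (median 38.7) in high and 0 to 23.7 CPM in low embryos, where its median of 1.97 CPM was below the filter limit. Prr18 had 2.20 to 133 CPM (median 53.5) in high and 0 to 12.1 CPM (median 4.02) in low embryos. The ranges of both genes overlapped, and which class carried them over the filter was not counted.

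Ribosome biogenesis factors, the nucleolar proteins that build ribosomal subunits, were lower almost without exception: 102 of 113 tested were lower, none was higher and all 113 had a negative log2 fold change (median -1.002). Of all genes 26.4% were lower. Rpf2, which takes part in assembly of the large subunit, had 11.9 to 67.3 CPM (median 27.4) in the 18 high-Zscan4 embryos and 65.5 to 161 CPM (median 107) in the 18 low-Zscan4 embryos, a log2 fold change of -1.86 ± 0.17 (SE) and adjusted p = 3.09e-10. Its ranges met at the edges, 67.3 CPM in the highest high and 65.5 CPM in the lowest low embryo. Noc4l, a factor of the small subunit, had 27.2 to 92.2 CPM (median 46.1) in the 18 high-Zscan4 embryos and 49.0 to 201 CPM (median 139) in the 18 low-Zscan4 embryos (log2 fold change -1.46 ± 0.15 (SE)). Tsr2 (-2.37), a chaperone of a ribosomal protein, had the most negative value of the list. The abundant nucleolar protein genes Npm1 and Ncl, chosen after their values had been seen, differed less: Npm1 had 209 to 1099 CPM (median 559) in the 18 high-Zscan4 embryos and 849 to 1472 CPM (median 1043) in the 18 low-Zscan4 embryos (log2 fold change -0.87 ± 0.15 (SE)), and Ncl had a log2 fold change of -0.62 ± 0.13 (SE). In single embryos, the mean log2 CPM over the list was 4.77 to 6.80 (median 5.98) in high, 5.02 to 7.23 (median 6.61) in middle and 6.53 to 7.27 (median 6.98) in low embryos. Control embryo 2 of experiment 2 had the lowest of these values, and without it 102 members were lower with a median of -0.92.

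Structural genes of the ribosome went the same way. Of 86 tested cytosolic ribosomal protein genes 72 were lower and 1 higher (83.7% and 1.16%), with a median log2 fold change of -0.77. Of all genes 26.4% were lower and 28.1% higher. Rpl14 had 12.8 to 105 CPM (median 53.6) in the 18 high-Zscan4 embryos and 117 to 231 CPM (median 159) in the 18 low-Zscan4 embryos with no overlap (log2 fold change -1.48 ± 0.17 (SE), adjusted p = 1.99e-08). Rpl24 had 26.9 to 197 CPM (median 67.6) in the 18 high-Zscan4 embryos and 135 to 280.5 CPM (median 187) in the 18 low-Zscan4 embryos and overlapped (log2 fold change -1.34 ± 0.20 (SE)). Rpl3 was the exception, with 17.9 to 222 CPM (median 120.0) in the 18 high-Zscan4 embryos and 46.9 to 139 CPM (median 73.7) in the 18 low-Zscan4 embryos (log2 fold change 0.50 ± 0.20 (SE), adjusted p = 0.0291), and it did not pass under oocyte scaling, limma-voom and other settings. Among translation factors 38 of 48 were lower and 1 higher (79.2% and 2.08%, median -0.68). Eef1e1, a scaffold protein of the tRNA synthetase complex, had a log2 fold change of -1.71 ± 0.16 (SE), and Eif3e, a subunit of the initiation factor that recruits the small subunit, had 7.26 to 61.9 CPM (median 34.5) in the 18 high-Zscan4 embryos and 62.9 to 129.7 CPM (median 97.9) in the 18 low-Zscan4 embryos with no overlap (log2 fold change -1.44 ± 0.17 (SE)). The single higher factor was Eef1a1, the elongation factor, at 0.25 ± 0.10 (SE), whose sign reversed to -0.03 under oocyte scaling.

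**Figure D3:**
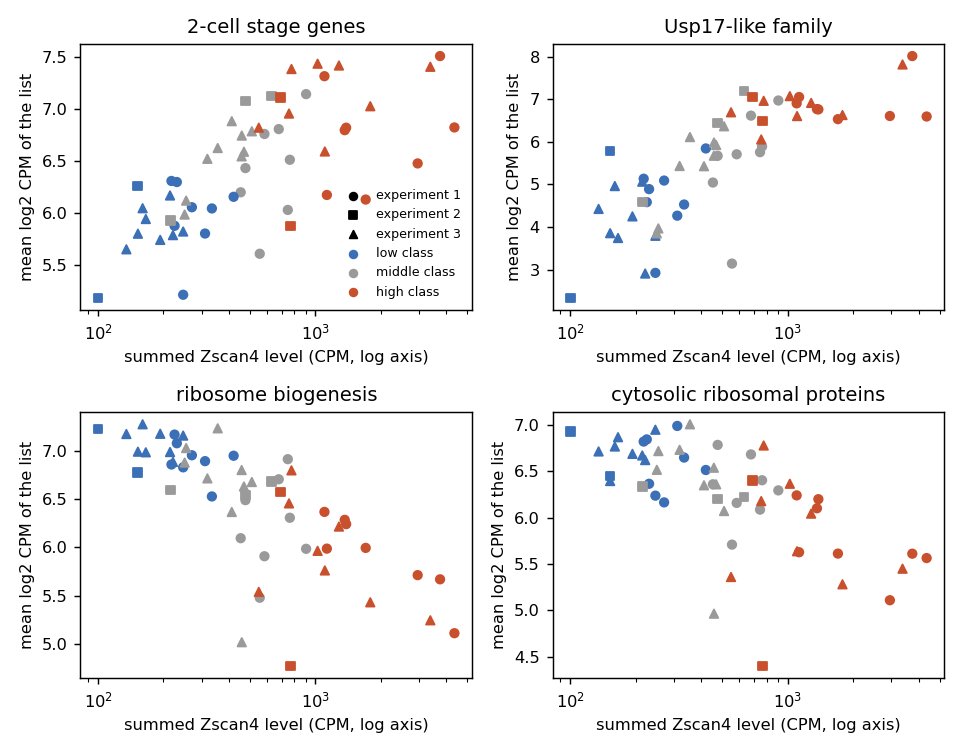
Mean log2 CPM of the members of 4 gene lists in each control embryo against its summed Zscan4 level (CPM, log axis), with 1 point per embryo, colour for the class and shape for the experiment. The Usp17-like mean is 2.34 to 5.84 in low and 6.05 to 8.01 in high embryos, the ribosome biogenesis mean is 6.53 to 7.27 in low and 4.77 to 6.80 in high embryos, and the high embryo of experiment 2 at the bottom of both lower panels is embryo 2.

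Other housekeeping machinery was lower as well, at a smaller share. Of 39 proteasome genes 27 were lower and 2 higher (69.2% and 5.13%, median -0.76), against 26.4% and 28.1% of all genes. Psma6, a subunit of the core ring, had 40.8 to 104 CPM (median 57.2) in the 18 high-Zscan4 embryos and 123 to 235 CPM (median 174) in the 18 low-Zscan4 embryos with no overlap (log2 fold change -1.43 ± 0.14 (SE), adjusted p = 5.76e-10). Adrm1, a ubiquitin receptor of the proteasome, had 21.8 to 95.9 CPM (median 50.9) in the 18 high-Zscan4 embryos and 97.2 to 171 CPM (median 138) in the 18 low-Zscan4 embryos, also with no overlap (log2 fold change -1.45 ± 0.16 (SE)). Of 77 spliceosome genes 48 were lower and 1 higher (median -0.63): Snrpa, a small nuclear ribonucleoprotein, was at -1.47 ± 0.19 (SE) and Slu7, a splicing factor, at -1.28 ± 0.16 (SE), while Aqr, a helicase, was higher at 1.06 ± 0.22 (SE). RNA polymerase II and its general factors had 48 of 85 lower and 9 higher (56.5% and 10.6%, median -0.53). The subunit gene Polr2i had 3.27 to 18.2 CPM (median 9.7) in the 18 high-Zscan4 embryos and 18.2 to 85.3 CPM (median 29.3) in the 18 low-Zscan4 embryos (log2 fold change -1.83 ± 0.21 (SE)), and Taf8, part of TFIID, had -1.52 ± 0.17 (SE). Gtf2b, which encodes TFIIB, and Med28, a Mediator subunit, were higher, at 1.17 ± 0.18 (SE) and 1.00 ± 0.14 (SE).

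**Figure D4:**
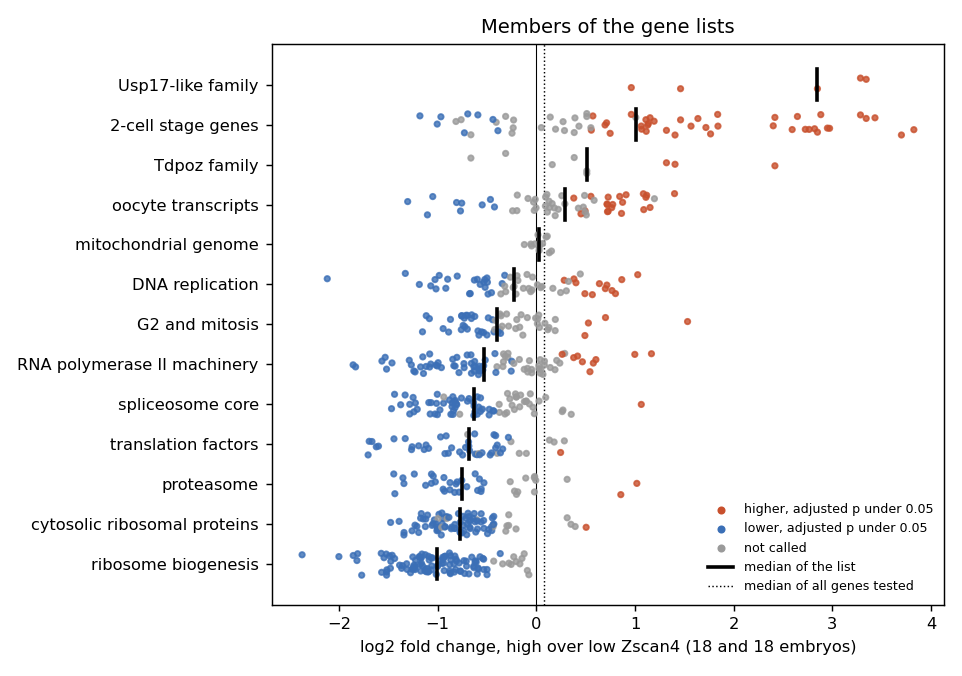
Log2 fold change (high over low Zscan4, 18 and 18 control embryos) of each tested member of 13 gene lists, 1 point per gene, coloured by call, with a bar at the median of the list and a dotted line at the median of all genes (0.08). The Usp17-like and 2-cell lists lie to the right (medians 2.85 and 1.01), the mitochondrial genome at 0.03, and the lists from DNA replication (-0.23) down to ribosome biogenesis (-1.002) to the left.

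Among the more abundant genes (mean log2 CPM from 4 upwards) that had no clone name and 1 sign in all experiments, those with the most negative fold changes had varied roles. Zfp977, a zinc finger gene, had 0 to 24.8 CPM (median 9.35) in the 18 high-Zscan4 embryos and 15.1 to 125 CPM (median 79.8) in the 18 low-Zscan4 embryos (log2 fold change -2.92 ± 0.35 (SE)). Surf2 had 0.778 to 22.2 CPM (median 5.08) in the 18 high-Zscan4 embryos and 12.0 to 104 CPM (median 44.1) in the 18 low-Zscan4 embryos (log2 fold change -2.89 ± 0.34 (SE)), and Prdx3, a mitochondrial peroxiredoxin, had 1.95 to 14.3 CPM (median 5.3) in the 18 high-Zscan4 embryos and 12.7 to 86.3 CPM (median 31.0) in the 18 low-Zscan4 embryos (log2 fold change -2.55 ± 0.28 (SE)). In none of these 3 genes did a high embryo exceed the median of the low ones. Others of this group were Slc39a11, a zinc transporter (-2.75), Gemin4, of the SMN complex (-2.57), Slc5a11, an inositol carrier (-2.50), Sgsh, a lysosomal enzyme (-2.45), Cybc1 (-2.47), Themis2 (-2.47), Tmem185b (-2.61), Kbtbd4 (-2.32), Srfbp1 (-2.35) and Riox2, a nucleolar oxygenase (-2.33). By p, the first were Knop1, a nucleolar protein gene with 18.2 to 61.2 CPM (median 38.4) in the 18 high-Zscan4 embryos and 82.6 to 211 CPM (median 129.5) in the 18 low-Zscan4 embryos (log2 fold change -1.73 ± 0.15 (SE), adjusted p = 1.92e-10), and Snx3, a sorting nexin of endosomes with 33.3 to 117 CPM (median 62.6) in the 18 high-Zscan4 embryos and 133 to 343 CPM (median 227) in the 18 low-Zscan4 embryos (log2 fold change -1.76 ± 0.16 (SE)). Knop1 and Snx3 did not overlap between the classes.

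Cell cycle genes were more often lower than higher. DNA replication genes had 12 higher and 24 lower of 59 (20.3% and 40.7%, median -0.23), and genes of G2 and mitosis 4 higher and 28 lower of 56 (7.14% and 50%, median -0.40), against 28.1% and 26.4% of all genes. Members of either direction are given by the naming rule. Orc1 and Orc5, of the origin recognition complex, were higher at 1.03 ± 0.16 (SE) and 0.87 ± 0.16 (SE), and Gins3 and Rpa2, which act at the fork, were lower at -2.12 ± 0.27 (SE) and -0.98 ± 0.13 (SE). Cdc25b, the phosphatase that starts mitosis, had 23.8 to 167 CPM (median 60.6) in the 18 high-Zscan4 embryos and 5.89 to 41.0 CPM (median 24.1) in the 18 low-Zscan4 embryos (log2 fold change 1.53 ± 0.22 (SE)), and Nuf2, a kinetochore gene, was higher at 0.70 ± 0.19 (SE). Kif11, the spindle kinesin, and Aurkc, an Aurora kinase of germ cells and early embryos, were lower at -1.08 ± 0.16 (SE) and -1.15 ± 0.15 (SE).

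Regulators linked to the 2-cell state were mostly lower or did not pass: 7 of 43 were higher and 21 lower (16.3% and 48.8%, against 28.1% and 26.4% of all genes, median -0.36). Trim28, a corepressor that silences transposable elements, had 37.2 to 128 CPM (median 74.2) in the 18 high-Zscan4 embryos and 100.2 to 178 CPM (median 135) in the 18 low-Zscan4 embryos (log2 fold change -0.90 ± 0.12 (SE)). Mga, part of a variant Polycomb complex, had 19.2 to 194 CPM (median 84.4) in the 18 high-Zscan4 embryos and 129 to 372 CPM (median 233) in the 18 low-Zscan4 embryos (log2 fold change -1.42 ± 0.18 (SE)), whereas Max, its binding partner, was higher (1.19 ± 0.17 (SE)). Dppa2 and Dppa4, known as activators upstream of the 2-cell programme in stem cells and chosen here after their values had been seen, were lower at -1.12 ± 0.22 (SE) and -0.93 ± 0.19 (SE). Gata2 was higher, with 5.97 to 107 CPM (median 16.6) in the 18 high-Zscan4 embryos and 0.224 to 8.98 CPM (median 3.21) in the 18 low-Zscan4 embryos (log2 fold change 2.74 ± 0.35 (SE)). Nr5a2 itself, the target of the knockdown, had 33.3 to 234 CPM (median 92.6) in the 18 high-Zscan4 embryos and 48.2 to 236 CPM (median 96.5) in the 18 low-Zscan4 embryos, a difference that did not pass (log2 fold change 0.04 ± 0.21 (SE), adjusted p = 0.893), and its sign changed with the setting.

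Among pluripotency and lineage regulators 4 of 23 were higher and 8 lower (17.4% and 34.8%, against 28.1% and 26.4% of all genes). Pou5f1, the gene for OCT4, had 48.1 to 329 CPM (median 128) in the 18 high-Zscan4 embryos and 30.01 to 83.5 CPM (median 49.1) in the 18 low-Zscan4 embryos (log2 fold change 1.36 ± 0.18 (SE)), and Nanog had 2.09 to 18.1 CPM (median 9.43) in the 18 high-Zscan4 embryos and 1.74 to 8.15 CPM (median 3.84) in the 18 low-Zscan4 embryos (1.1 ± 0.26 (SE)). Tead4, a factor of the trophectoderm, had 4.87 to 69.3 CPM (median 16.0) in the 18 high-Zscan4 embryos and 51.9 to 177 CPM (median 113) in the 18 low-Zscan4 embryos (log2 fold change -2.30 ± 0.28 (SE)), and Tfap2c was lower at -1.08 ± 0.15 (SE). Of 18 DNA methylation genes 4 were higher and 4 lower (22.2% each, near the shares of all genes), among them Dnmt3l (0.96 ± 0.14 (SE)) and Gadd45g (2.38 ± 0.38 (SE)) higher and Dppa3, which guards maternal methylation (-0.81 ± 0.18 (SE)), and Apex1, a base excision repair enzyme (-1.05 ± 0.18 (SE)), lower.

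Maternal transcripts did not move one way. Of 57 oocyte transcripts 21 were higher and 9 lower (36.8% and 15.8%, against 28.1% and 26.4% of all genes, median 0.29), and under oocyte scaling, which centres on this list, 14 were higher and 10 lower (median -0.03). Tcl1, an abundant oocyte and 2-cell gene that is on both lists, had 1729 to 8993 CPM (median 5186) in the 18 high-Zscan4 embryos and 1206 to 5126 CPM (median 2135) in the 18 low-Zscan4 embryos (log2 fold change 1.15 ± 0.18 (SE)), and Uchl1, a ubiquitin hydrolase, had 1.09 ± 0.15 (SE). Ddx4, the germline helicase, had 15.0 to 79.5 CPM (median 44.1) in the 18 high-Zscan4 embryos and 47.5 to 185 CPM (median 109) in the 18 low-Zscan4 embryos (log2 fold change -1.30 ± 0.19 (SE)), and Taf4b, a TFIID subunit of the germline, was at -1.05 ± 0.18 (SE). The defining oocyte genes Gdf9 and Bmp15, both growth factor genes, were higher at 0.55 ± 0.14 (SE) and 1.08 ± 0.23 (SE), Ooep at 0.49 ± 0.19 (SE), and Zp3, of the zona pellucida, was lower at -0.55 ± 0.15 (SE). Of 45 factors that store or degrade maternal RNA 11 were higher and 11 lower (24.4% each), near the shares of all genes: Ybx2, an RNA-binding protein of germ cells, and Dcp2, the decapping enzyme, were higher at 1.12 ± 0.18 (SE) and 0.87 ± 0.14 (SE), and Ythdf2, a reader of methylated RNA, and Pabpc1, the poly(A)-binding protein, lower at -1.21 ± 0.20 (SE) and -1.13 ± 0.15 (SE). None of the 13 genes of the mitochondrial genome passed by edgeR, limma-voom or DESeq2, and by edgeR 0 had an unadjusted p under 0.05. The one with the smallest p, mt-Co3, had 2736 to 13925 CPM (median 6325) in the 18 high-Zscan4 embryos and 4348 to 11205 CPM (median 5709) in the 18 low-Zscan4 embryos (adjusted p = 0.374).

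The same measure was then read in embryos that the rule did not use. Across the 55 knockdown embryos, not split, each gene was fitted on log2 Zscan4 CPM with experiment as a factor. Of 16098 genes tested, 2226 (13.8%) were higher and 3409 (21.2%) lower per doubling of Zscan4. This balance depended on the method: limma-voom called 3657 higher and 2747 lower, and edgeR with library totals in place of TMM 2929 and 2918. Of the 3711 genes higher in high-Zscan4 controls, 1417 (38.2%) were higher along Zscan4 in knockdown embryos, 0 were lower and 3422 had a positive slope (median 0.15 log2 units per doubling). Of the 3486 lower genes, 2781 (79.8%) were lower, 0 higher and 3452 had a negative slope (median -0.29). Seen from the knockdown side, 63.7% of the genes higher and 81.6% of the genes lower along Zscan4 were called in the same direction in control embryos. The median slope over all genes was 0.01.

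Of the 109 named genes that were called in control embryos, 93 were called in the same direction along Zscan4 in knockdown embryos, 0 in the other and 16 did not pass. Pramel19 gained 1.01 log2 units per doubling of Zscan4 (adjusted p = 1.68e-09), Usp17la 0.89 (adjusted p = 5.75e-14), Jun 1.06 (adjusted p = 3.89e-08) and Eif4a3l1 1.23 (adjusted p = 1.07e-19). Rpf2 had a slope of -0.71 (adjusted p = 3.25e-07), Psma6 of -0.60 and Snx3 of -0.54. Genes that were higher in controls and did not pass in knockdown embryos included Max (slope 0.10, adjusted p = 0.276), Dnmt3l (0.07, adjusted p = 0.396), Med28 (0.06, adjusted p = 0.445), Orc5 (0.12, adjusted p = 0.196), Dcp2 (0.08, adjusted p = 0.25) and Tcl1 (0.16, adjusted p = 0.0715). Acd (0.089, adjusted p = 0.3997), Hspb1 (0.13, adjusted p = 0.149) and Stag3 (0.19, adjusted p = 0.102) were also among them. So was Nuf2, whose slope was negative (-0.021, adjusted p = 0.867). By list, 98 of 113 ribosome biogenesis factors, 68 of 86 ribosomal protein genes and 28 of 40 proteasome genes were lower and none was higher, and 34 of 68 2-cell stage genes were higher and 4 lower. Of 58 oocyte transcripts 6 were higher and 8 lower in knockdown embryos. Whether slopes differed between control and knockdown embryos was not tested.

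**Figure D5:**
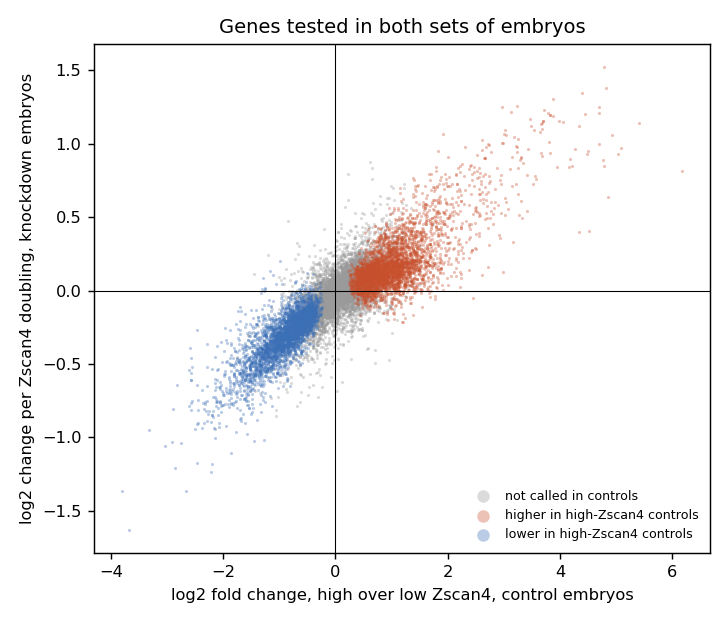
Log2 fold change between high- and low-Zscan4 control embryos (horizontal) against the log2 change per doubling of Zscan4 in the 55 knockdown embryos (vertical), 1 point per gene tested in both, coloured by its call in control embryos. Of the called genes, 3422 of 3711 higher ones lie above and 3452 of 3486 lower ones below the horizontal line.

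Promoter letters differed between the sets of genes, and are given as a description. A RefSeq promoter was matched by symbol for 9964 of 13208 tested genes (75.4%), so the shares cover matched genes only. In the 250 bases before the start, searched on both strands, the median number of CG dinucleotides was 13 in higher, 17 in lower and 15 in all tested genes. TATAAA was found in 8.60% of higher and 5.74% of lower genes, and in 22.3% of the genes higher by 4-fold or more, against 6.89% of all tested genes and 13.0% of the 27025 promoters in the table. CCGGAAG (the reverse complement of CTTCCGG, the core that ETS factors prefer) was found in 20.7% of lower and 8.96% of higher genes, against 13.8% of all tested. CAAGGTCA, the letters Nr5a2 prefers, were found in 0.874%, 1.04% and 0.983% of higher, lower and all tested genes. Genes higher by 4-fold or more also spanned less of the genome, with a median of 5.50 kb from first to last exon against 23.2 kb for all tested genes and 12.2 kb for genes lower by 4-fold or more. Many of the strongly higher genes belong to families of copies with similar promoters, so these shares count related sequences more than once, and 59.2% of that set had a matched promoter.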

How the data were processed

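Expression was measured in single 2-cell mouse embryos by SmartSeq2 RNA-seq, without molecular identifiers or strand. Per the submitters' processing notes, the tools were kallisto 0.46.1 and Trim Galore 0.6.2 after bcl2fastq, with DESeq2 1.32.0 in R 3.5.1, and the builds hg19 and mm10 are listed without a role. The annotation release indexed was not given in the sources used here. For each transcript the authors deposited an expected count without normalization. Other deposited tables were used only for gene names. Groups came from the treatment label and title.

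The 119353 transcripts were summed to 36134 genes and rounded. Gene names were taken from a deposited table for 117282 transcripts and from GENCODE M21 for 345, and 1726 without a gene were left out (median 0.567% of counts). Few genes (2.97% of 35820) had the same coordinates in the table and in GENCODE M21, so positions are from GENCODE M21 or RefSeq.

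The submitted libraries ranged from 1.97 to 21.4 M counts. The test was that of edgeR 4.0.16 in R 4.3.3 with limma 3.58.1, using filterByExpr by class, TMM scaling, a quasi-likelihood F-test of class with experiment as a factor (32 residual degrees of freedom, biological coefficient of variation 0.517) and Benjamini-Hochberg adjustment over all genes at 0.05. SEs were taken from the fold change and F. Levels are TMM-scaled CPM over the 56 control embryos, except Zscan4 and marker levels, which use column totals. Library measures were compared by 100000 permutations of the class within experiments on the log2 scale, two-sided, adjusted over 5 measures. The fit was tested on simulated data. Named genes were the 14 largest fold changes per direction (1 sign in all 3 experiments, average log2 CPM of at least 4, no clone name), the 2 smallest p per direction, up to 2 called members per direction of each of 24 lists (where none was called, the one of smallest p), and Nr5a2. Values had been seen before any other gene was named. The rule, members and lists were chosen with earlier results of these data known, and splitting embryos by one transcript family of the same libraries means that any RNA that varies with it can pass. Alternatives were DESeq2 1.42.0, limma-voom, other scalings, filters, class rules, covariates and sets of experiments. Python 3 scripts prepared the counts and promoters.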

Additional observations from a re-analysis of the deposited data

Results flagged for a closer look

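Single embryos stood apart from the other 7 of their class and experiment for some of the named genes and library measures. Each class of 8 embryos in experiments 1 and 3 was examined, and a value was noted where its gap to the nearest embryo exceeded 0.526 of the range of the group on the log2 scale (Dixon's test). Chance alone notes about 1 in 20 such groups, and 34 values in 458 groups were noted.

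In experiment 1, high-Zscan4 embryo 8 had Ybx2 at 87.0 CPM (the others 34.1 to 49.5), Amhr2 at 33.0 CPM (the others 62.7 to 112), Taf8 at 8.16 CPM (the others 25.0 to 38.7), Vim at 43.9 CPM (the others 0.909 to 4.43), Gins3 at 2.38 CPM (the others 22.6 to 75.1) and Aurkc at 26.2 CPM (the others 46.7 to 74.5). High-Zscan4 embryo 10 had Psmg2 at 0.203 CPM (the others 3 to 14.3). High-Zscan4 embryo 11 had Hspa2 at 38.2 CPM (the others 98.6 to 197). High-Zscan4 embryo 12 had Usp17la at 587 CPM (the others 81.7 to 184). High-Zscan4 embryo 14 had Dnmt3l at 167 CPM (the others 110.5 to 134) and library total at 15.4 M counts (the others 2.76 to 5.87). High-Zscan4 embryo 21 had Trim28 at 128 CPM (the others 68.2 to 87.7). High-Zscan4 embryo 23 had Tmem185b at 0 CPM (the others 1.94 to 10.1). Low-Zscan4 embryo 4 had Plk2 at 105 CPM (the others 20.1 to 38.5) and Tmem185b at 57.2 CPM (the others 3.74 to 12.4). Low-Zscan4 embryo 9 had Pramel45 at 15.7 CPM (the others 0 to 1.57). Low-Zscan4 embryo 15 had mt-Co3 at 11205 CPM (the others 4348 to 5997), Pramel40 at 0 CPM (the others 1.89 to 6.8) and mitochondrial share at 11.3% (the others 5.69 to 7.23). Low-Zscan4 embryo 19 had Mdm2 at 262 CPM (the others 142 to 179.5) and Pramel39 at 5.54 CPM (the others 0 in all). Low-Zscan4 embryo 24 had Atf3 at 10.4 CPM (the others 0 to 1.31).

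In experiment 3, high-Zscan4 embryo 3 had Prr18 at 2.2 CPM (the others 47.7 to 104) and marker RNA at 2.91 CPM (the others 85.0 to 476). High-Zscan4 embryo 7 had Vim at 0 CPM (the others 1.13 to 4.58), Rpl3 at 17.9 CPM (the others 59.5 to 147) and Pramel39 at 0 CPM (the others 12.6 to 70.8). High-Zscan4 embryo 8 had Pramel7 at 355 CPM (the others 90.3 to 172) and Orc5 at 149 CPM (the others 284 to 409). Low-Zscan4 embryo 1 had Obox3 at 66.5 CPM (the others 119 to 165). Low-Zscan4 embryo 13 had Eif1ad2 at 25.2 CPM (the others 11.5 to 16.4). Low-Zscan4 embryo 17 had Nr5a2 at 142 CPM (the others 48.2 to 77.1). Low-Zscan4 embryo 22 had Cdc25b at 5.89 CPM (the others 15.6 to 33.2) and Pramel40 at 0 CPM (the others 1.1 to 4.33).

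High-Zscan4 embryo 8 of experiment 1 was noted for more genes than any other embryo.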

How the results depend on the processing

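Counts of higher and lower genes stayed within 1.5 times of 3711 and 3486 under DESeq2, limma-voom, DESeq2 size factors, library totals, no low-count filter, middle embryos as a class, a slope on Zscan4 over all control embryos, the highest and lowest floor(n/4), ranking by 4 Zscan4 genes, library total or mitochondrial share as a covariate, and without experiment 1 or 2. They also did so in 2 settings chosen after seeing the data, without control embryo 2 of experiment 2 (3773 and 3197) and without the 4 deepest embryos (3722 and 3119). With size factors from the oocyte list 2021 genes were higher. Without experiment 3 the counts were 2246 higher and 2110 lower, in experiment 1 alone 1696 and 1796, and in experiment 3 alone 2415 genes were higher, with fewer embryos in each. No gene called in the report was called with the other sign under any of these settings. In knockdown embryos 3657 genes were higher and 2747 lower by limma-voom, 3416 and 3842 with no filter, and 1193 higher and 2058 lower without experiment 1. Of 2105 values of the 111 named genes over 19 settings, 63 lost their call and 9 reversed. The reversed ones were Nr5a2 (-0.054 by limma-voom, -0.24 under oocyte scaling, -0.028 with no filter, -0.013 with floor(n/4), -0.26 without experiment 3 and -0.36 in experiment 1 alone), Eef1a1 (-0.034 under oocyte scaling) and mt-Co3 (-0.11 under oocyte scaling and -0.030 without experiment 1). The log2 differences of library measures that did not pass reversed for mitochondrial share (-0.081) and Nr5a2 (0.19) without experiment 1, and for marker RNA (-0.23) without experiment 2. The cause of these shifts was not tested. No paired analysis was possible because high and low embryos of an experiment belong to 1 labelled group and carry different embryo numbers. Estimated counts limit low genes most, since a low count can miss a transcript in a library of 2.18 M counts.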

Other observations

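Lists of stress, signalling and telomere genes held members called in either direction, and their counts stand beside 28.1% higher and 26.4% lower of all genes. Of 36 heat shock chaperone genes 10 were higher and 15 lower (27.8% and 41.7%): Hspa2, a germ cell chaperone, and Hspb1, a small heat shock protein, had log2 fold changes of 1.73 ± 0.28 (SE) and 1.03 ± 0.23 (SE), and Cct4, a chaperonin subunit, and Stip1, a co-chaperone, had -1.43 ± 0.18 (SE) and -0.92 ± 0.14 (SE). Of 35 genes of the p53 and damage response 7 were higher and 10 lower (20% and 28.6%), which is near the shares of all genes. Plk2, a kinase, had 37.3 to 309.6 CPM (median 188) in the 18 high-Zscan4 embryos and 20.1 to 105 CPM (median 34.5) in the 18 low-Zscan4 embryos (log2 fold change 2.00 ± 0.23 (SE)), Btg2, an antiproliferative gene, had 1.52 ± 0.21 (SE), and Chek2 and Mdm2 were lower at -1.58 ± 0.25 (SE) and -0.71 ± 0.12 (SE). Of 25 genes of the integrated stress response 9 were higher and 7 lower (36% and 28%): Ddit3, the gene for CHOP, was higher at 1.42 ± 0.26 (SE), and the serine synthesis enzymes Phgdh and Psat1 were lower at -1.90 ± 0.26 (SE) and -1.30 ± 0.19 (SE). Telomere and meiotic recombination genes had 2 higher and 4 lower of 21 (9.52% and 19.05%). Acd, of the shelterin complex at telomeres, had 33.8 to 136 CPM (median 73.8) in the 18 high-Zscan4 embryos and 15.0 to 54.1 CPM (median 26.2) in the 18 low-Zscan4 embryos (log2 fold change 1.26 ± 0.17 (SE)), and Stag3, a meiotic cohesin, had 0.93 ± 0.22 (SE), whereas Terf1, also of shelterin, and Hormad1 were lower at -0.49 ± 0.17 (SE) and -0.81 ± 0.14 (SE).

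Further groups were formed after the values had been seen. Of 20 tested immediate-early genes other than the Fos and Jun genes, 14 were higher and 2 lower (median 1.21), against the shares of all genes above. Dusp6, a phosphatase that acts on ERK, was at 3.22 ± 0.39 (SE), Klf10 at 3.03 ± 0.34 (SE), Hes1 at 2.75 ± 0.31 (SE) and Egr1 at 0.99 ± 0.15 (SE), whereas Dusp10 and Myc were lower at -2.12 ± 0.19 (SE) and -1.24 ± 0.31 (SE). Subunit genes of RNA polymerases I and III were lower in 7 of 8 and 8 of 9 tested (medians -0.98 and -1.14), and genes of the RNA exosome in 6 of 9, with 1 higher. Polr1f had 7.94 to 41.3 CPM (median 26.4) in the 18 high-Zscan4 embryos and 48.0 to 181 CPM (median 85.6) in the 18 low-Zscan4 embryos, which did not overlap (log2 fold change -1.97 ± 0.20 (SE)). Mitochondrial ribosomal protein genes had 41 of 75 lower and 6 higher (median -0.47), while no gene of the mitochondrial genome passed. All 6 tested Tcl1 genes were higher by 1.07 to 1.19, and in the knockdown embryos their slopes ran from 0.03 (Tcl1b2) to 0.20 (Tcl1b4) log2 units per doubling of Zscan4, with 0.0715 (Tcl1) as the smallest adjusted p. The deposited table also has a row for B1 and one for B2 SINE repeats, which were not tested: medians were 46.4 CPM in high and 38.8 CPM in low embryos for B1, and 58.1 and 33.3 CPM for B2, with overlapping ranges.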
